A study of Mus musculus with 6 samples.

Results

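The tetraspanins and uroplakins of mouse esophageal and stomach organoids were examined on 6 single-color Agilent arrays. The members were the 31 genes whose array name was *Tspan* followed by a number, or *Cd9*, *Cd37*, *Cd53*, *Cd63*, *Cd81*, *Cd82*, *Upk1a*, *Upk1b*, *Upk2*, *Upk3a* or *Upk3b*. They were covered by 43 of the 55681 probes and made up 31 of the 34298 gene names. Each gene was represented by its brightest probe over the 6 arrays. The stomach organoids were started from glands of the corpus and the esophageal organoids from esophageal epithelium. Both were labelled with the mouse numbers 1, 2 and 4, and all as controls at passage 0. Harvest was on day 8, and on day 7 for stomach mouse 4. The methods name wild-type female C57BL/6 mice, while the labels give no strain, sex or age. Both media held B27, N2, EGF, noggin, FGF-10, N-acetyl-L-cysteine, nicotinamide, a TGF-β receptor kinase inhibitor and the ROCK inhibitor Y-27632. The stomach medium also held R-spondin1- and WNT3A-conditioned medium and gastrin, and the esophagus medium held Forskolin. Tissue and medium therefore changed together, and their parts in any difference cannot be told apart.

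Tetraspanins are small proteins that cross the membrane several times and form a large extracellular loop. They gather integrins, immunoglobulin-domain proteins, proteases and each other into membrane microdomains, and they steer these partners through endosomes and to the cell surface. Uroplakins are the proteins of the rigid plaques on the surface of the bladder lining. UPK1A and UPK1B are themselves tetraspanins, of which UPK1A pairs with UPK2 and UPK1B with UPK3A or UPK3B to leave the endoplasmic reticulum. In epithelia of the gut, tetraspanins are known as surface antigens and as cargo of exosomes.

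The promoter sequences of 28 members were found in the RefSeq table, at 37 transcription starts of build GRCm38.p6. The 250 bases upstream of the start are shown for 6 of the members that differed between the tissues and have a single start in the table, so that both directions can be seen. Of these, *Tspan8*, *Tspan1*, *Tspan13* and *Tspan15* were higher in stomach organoids, and *Cd9* and *Tspan17* were higher in esophageal organoids. The windows are chr10:115817034-115817283 on the plus strand for *Tspan8*, chr4:116167599-116167848 on the minus strand for *Tspan1*, chr12:36042479-36042728 on the minus strand for *Tspan13*, chr10:62231219-62231468 on the minus strand for *Tspan15*, chr6:125494761-125495010 on the minus strand for *Cd9*, chr13:54789155-54789404 on the plus strand for *Tspan17*. Capitals mark matches on either strand to GATAA (the core of GATA factor sites), TGANTCA (AP-1), AACCNGTT (grainyhead-like factors), GGGCGG (the GC box), TATAAA (the TATA box) or CTTTGAT (TCF/LEF), counted also where they overlap.
Tspan8: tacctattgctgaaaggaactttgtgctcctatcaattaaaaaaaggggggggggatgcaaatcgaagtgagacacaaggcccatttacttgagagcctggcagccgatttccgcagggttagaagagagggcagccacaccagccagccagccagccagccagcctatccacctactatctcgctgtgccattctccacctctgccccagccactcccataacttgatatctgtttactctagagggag
Tspan1: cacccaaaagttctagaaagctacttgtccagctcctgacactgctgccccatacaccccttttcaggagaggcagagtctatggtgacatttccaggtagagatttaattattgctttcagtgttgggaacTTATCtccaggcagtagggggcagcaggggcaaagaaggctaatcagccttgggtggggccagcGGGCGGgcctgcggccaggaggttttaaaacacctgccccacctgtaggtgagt
Tspan13: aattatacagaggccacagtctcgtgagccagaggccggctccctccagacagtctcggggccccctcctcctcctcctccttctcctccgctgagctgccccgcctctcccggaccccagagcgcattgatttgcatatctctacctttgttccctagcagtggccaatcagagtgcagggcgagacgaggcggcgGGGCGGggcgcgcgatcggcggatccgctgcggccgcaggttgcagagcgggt
Tspan15: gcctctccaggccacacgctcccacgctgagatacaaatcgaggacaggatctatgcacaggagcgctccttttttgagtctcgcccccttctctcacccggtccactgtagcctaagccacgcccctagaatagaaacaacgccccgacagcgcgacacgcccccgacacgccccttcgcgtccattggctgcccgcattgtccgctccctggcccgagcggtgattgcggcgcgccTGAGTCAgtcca
Cd9: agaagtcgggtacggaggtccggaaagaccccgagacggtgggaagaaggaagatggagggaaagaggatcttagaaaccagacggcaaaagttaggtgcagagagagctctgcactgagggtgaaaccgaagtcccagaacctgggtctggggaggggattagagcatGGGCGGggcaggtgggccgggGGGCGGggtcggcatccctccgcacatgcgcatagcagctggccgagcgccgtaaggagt
Tspan17: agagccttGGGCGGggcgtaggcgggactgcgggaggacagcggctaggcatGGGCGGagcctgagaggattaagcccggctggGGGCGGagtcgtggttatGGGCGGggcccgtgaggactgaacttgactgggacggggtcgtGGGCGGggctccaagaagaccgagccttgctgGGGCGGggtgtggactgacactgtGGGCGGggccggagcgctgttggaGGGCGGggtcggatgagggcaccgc
The *Tspan8* window held none of the 6 motifs. *Tspan1* held GATAA and GGGCGG, *Tspan13* held GGGCGG and *Tspan15* held TGANTCA, while *Cd9* held GGGCGG at 2 places and *Tspan17* at 8 places. Over all 37 member windows, GATAA was present in 21.6% and GGGCGG in 43.2%. Over all 32851 windows of the table, the shares were 22.6% and 32.7%. TGANTCA was found in 1 member window (2.7%, against 6.75% of all windows), AACCNGTT in 1 (2.7% against 1.79%), TATAAA in 1 (2.7% against 12.4%) and CTTTGAT in 0 (3.21% of all windows). A match to these letters is a description of the window and not a measured binding site.

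Many tetraspanins differed in signal between stomach and esophageal organoids, most of them toward the stomach. At adjusted p under 0.05 (limma, Benjamini-Hochberg over all 55681 probes), 11 members were higher in stomach organoids, 3 were higher in esophageal organoids and 17 did not pass. The 14 members that passed were 45.2% of the 31, where 14.9% of the 34281 genes tested passed. The share of all genes that passed was 7.71% toward the stomach and 7.15% toward the esophagus. Many array names have no signal, since 12392 of the genes tested were not well above background on any array, as were 4 of the 31 members. Of the 18485 genes that every array of at least 1 tissue measured well above background, 26.6% passed, as did 56% of the 25 such members. The 6 largest differences were toward the stomach. They were those of *Tspan8*, *Tspan2*, *Tspan13*, *Tspan1*, *Tspan15* and *Cd82*, each with a log2 fold change beyond -3 on the scale of esophagus minus stomach. The median log2 fold change of the 31 members was -0.20, and that of all genes tested was 0.03. The arrays of the tissues did not overlap for 15 members (48.4%) and for 31.6% of all genes tested. Among those well above background in a tissue, the shares without overlap were 56% of members and 45.5% of genes.

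Across the settings tried, 8 of the 11 members called in the stomach were called under all 15 alternatives. They were *Tspan8*, *Tspan2*, *Tspan13*, *Tspan1*, *Tspan15*, *Cd82*, *Tspan12* and *Upk3b*. None of the 3 calls in the esophagus held under all of them. The 15 alternatives are not 15 separate checks. With the slide as a block, the comparison is the one without esophagus replicate 4. Normexp with an offset of 15 on median signals closely remakes the authors' values. Without any 1 array, 0 or 1 member was called higher in the esophagus, 0 without stomach replicate 1, stomach replicate 4 or esophagus replicate 2, and 1 without each of the others. The number higher in the stomach was 8 to 12.

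**Figure D1:**
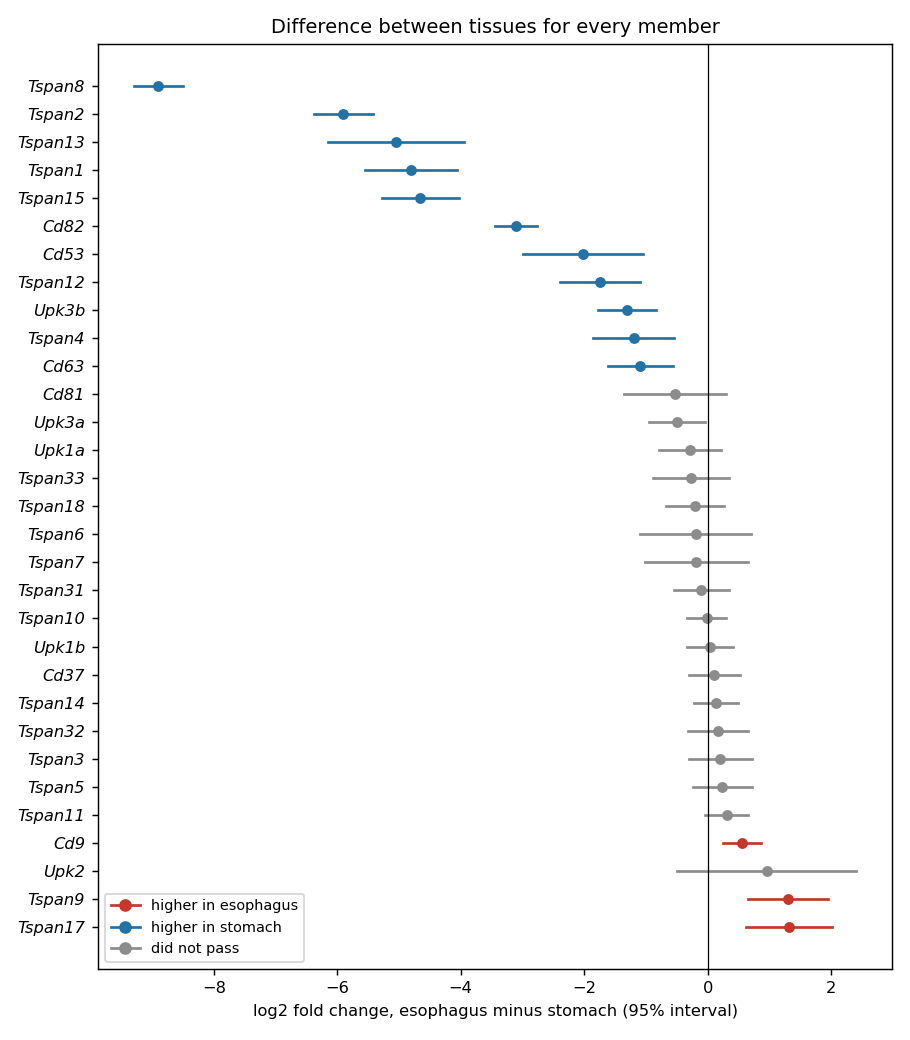
Log2 fold change of each of the 31 members (esophagus minus stomach, horizontal axis), with its 95% confidence interval from limma (n = 3 arrays per tissue). Points to the left were higher in stomach organoids, with *Tspan8* at -8.90, and the 3 members that passed toward the esophagus lay between 0.57 and 1.32.

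On these arrays, the software marked 45.5% to 51.1% of the spots of genes as well above background, no spot was saturated, and 26 to 33 of the 43 member probes were well above background. Of the 31 members, 20 were well above background on all 6 arrays. All values are log2 intensities after the authors' background correction and quantile normalization. Intensities of different probes are not compared as transcript levels. The identity of the organoids was checked with marker genes. All 12 columnar and gastric markers passed toward the stomach, and 8 of 9 squamous markers were higher in the esophagus. The exception was *Trp63*, whose probes disagreed. Its brightest probe was lower in the esophagus (-1.22, limma adjusted p = 0.0249), and the mean of its probes was higher there (5.001, limma adjusted p = 4.31e-06). The call of the brightest probe was lost without replicate 1 or 2 of either tissue (limma adjusted p = 0.0615 to 0.11). No fibroblast, smooth muscle or endothelial marker passed (0 of 9 and 0 of 4, where 14.9% of all genes did). This compares the tissues and does not show that such cells were absent. *Acta2*, *Kdr* and *Pecam1* were well above background on all 6 arrays, while 3 of the 9 and 2 of the 4 markers were so on none. In cultures of mixed cells, fewer cells of a type and less RNA per cell cannot be told apart.

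*Tspan8* (NM_146010), a surface glycoprotein of gut epithelium and of exosomes, was bright in stomach organoids and close to background in esophageal organoids. Its probe lies on the plus strand at chr10:115286563-115286622 of mm9. The log2 values were 14.76, 14.66 and 14.31 in stomach organoids of mice 1, 2 and 4, and 5.78, 5.55 and 5.69 in esophageal organoids. All 6 arrays were well above background, and each stomach array stood far above each esophagus array. The log2 fold change was -8.90 (standard error, SE, of 0.17; limma adjusted p = 8.9e-08), a 478-fold difference, and 34 of the 34281 genes tested had a larger one toward the stomach. It was -8.12 with a normexp offset of 50 and -9.94 on the software's processed signal.

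*Tspan1* (NM_133681), a tetraspanin of epithelial cells, was bright in both tissues and higher in the stomach. Its values were 14.47, 14.87 and 15.01 in the stomach and 10.63, 9.96 and 9.34 in the esophagus of mice 1, 2 and 4. The stomach arrays were close together and the esophagus arrays more spread (SD 0.28 and 0.64, n = 3 each). The difference on the log2 scale was -4.81 (SE 0.32, limma adjusted p = 4.84e-05), or 28.0-fold.

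*Tspan13* (NM_025359), a tetraspanin reported to modulate voltage-gated calcium channels, followed the same direction. Stomach arrays gave 12.99, 13.11 and 12.87, and esophagus arrays gave 6.80, 8.07 and 8.97. The stomach values were nearly equal, while the esophagus values spread widely (SD 1.09, n = 3) without reaching them. Their difference was -5.04 on the log2 scale (SE 0.48, limma adjusted p = 0.000328).

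*Tspan2* (NM_027533), best known from oligodendrocytes, did not rise well above background in any esophagus sample. Its values were 11.23, 10.87 and 10.52 in the stomach and 4.95, 5.13 and 4.83 in the esophagus. On the authors' values, stomach organoids were at least 59.8-fold higher (limma adjusted p = 1.41e-06). This bound sets the stomach mean against the esophagus mean of each array's own value or of the lowest signal of any probe well above background there, whichever was higher. On the software's processed signal the log2 fold change was -8.76, with a normexp offset of 50 it was -4.84, and with the mean of both probes it was -4.56. A second probe gave 9.27-fold on the authors' values (limma adjusted p = 0.00221).

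**Figure D2:**
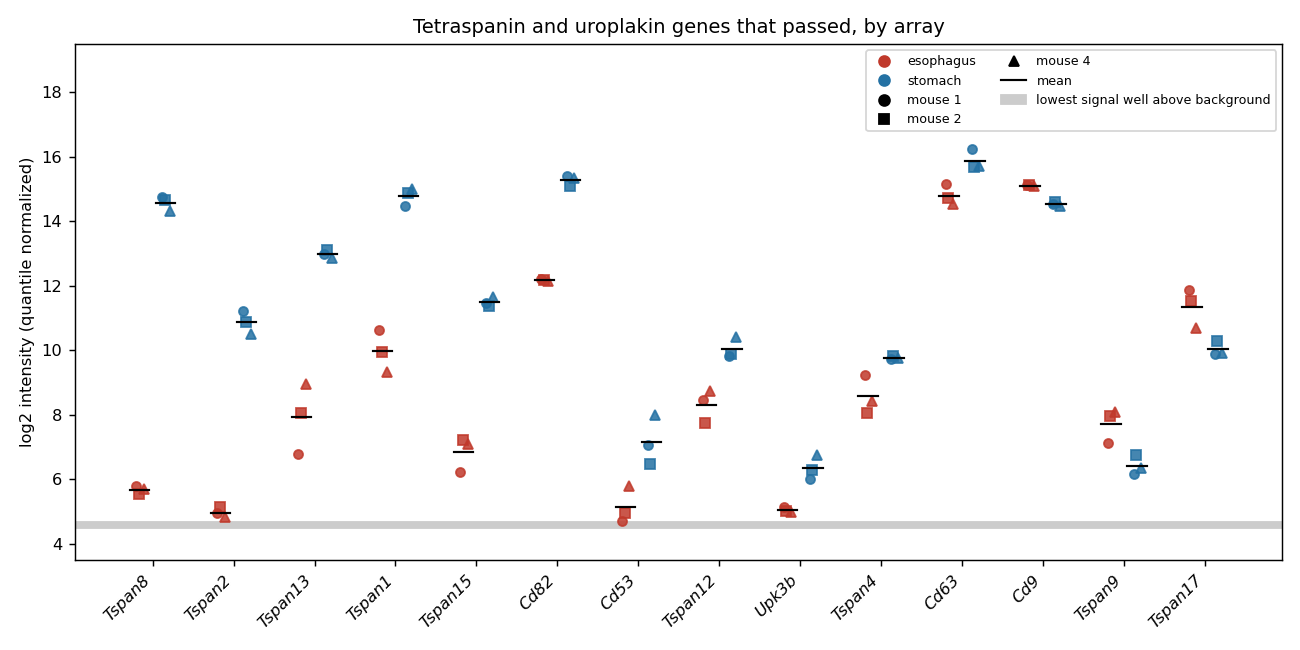
Log2 intensity (vertical axis) of the 14 members that passed, by array, with esophageal organoids in red, stomach organoids in blue, a marker shape for each mouse and a bar at the mean of 3 arrays. The grey band spans the lowest signal of any probe well above background over the 6 arrays (4.49 to 4.66), and in each of the 14 genes the tissues do not overlap.

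The TspanC8 tetraspanins, named for the cysteines of their large loop, carry the membrane protease ADAM10 out of the endoplasmic reticulum and direct it to its substrates. Of the 6 members in this group, *Tspan15* was higher in the stomach, *Tspan17* was higher in the esophagus and 4 did not pass, a share called of 33.3% against 14.9% of all genes and 26.6% of those well above background in a tissue. *Tspan15* (NM_197996), which directs ADAM10 to N-cadherin, had values of 11.48, 11.37 and 11.66 in the stomach and 6.23, 7.21 and 7.11 in the esophagus. Its log2 fold change was -4.65 (SE 0.27, limma adjusted p = 2.12e-05). *Tspan17* (NM_028841) had values of 11.88, 11.52 and 10.68 in the esophagus and 9.90, 10.29 and 9.92 in the stomach. The esophagus array of mouse 4 was the nearest to the stomach arrays. The log2 fold change was 1.32 (SE 0.30, limma adjusted p = 0.0266), and the call was lost without any 1 array other than that of esophagus replicate 4 (limma adjusted p = 0.0544 to 0.112). It was also lost with a normexp offset of 50 (limma adjusted p = 0.0579) and with the mean of both probes (1.14, limma adjusted p = 0.0832).

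Of the other TspanC8 members, *Tspan14* and *Tspan5*, both linked to Notch processing by ADAM10, were bright in both tissues and overlapped between them. *Tspan14* differed by 0.14 (95% confidence interval -0.22 to 0.50) and *Tspan5* by 0.24 (-0.24 to 0.72) on the log2 scale. *Tspan33* differed by -0.27 (-0.88 to 0.34). For *Tspan10*, known from the eye, no array was well above background. *Adam10* itself (NM_007399) was lower in esophageal organoids, with 11.80, 11.96 and 11.67 against 12.74, 12.59 and 12.94 in the stomach, a log2 fold change of -0.95 (limma adjusted p = 0.00722). On the software's processed signal it was -0.66 and did not pass (limma adjusted p = 0.239). Of the list of ADAM10, ADAM17 and their substrates, 3 of 11 genes were higher in stomach organoids and 1 in esophageal organoids (36.4% called, against 26.6% of all genes well above background in a tissue). The substrates that passed were betacellulin (*Btc*, -3.25, limma adjusted p = 0.000676), *Notch1* (-1.74, limma adjusted p = 0.0263) and ephrin-B1 (*Efnb1*, 1.39, limma adjusted p = 0.00048). *Notch1* did not pass without stomach replicate 1 or 2 or esophagus replicate 1 or 4 (limma adjusted p = 0.0681 to 0.113), and the mean of its probes gave -0.53 (limma adjusted p = 0.235). The median of the list was -0.34.

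The widely expressed tetraspanins *Cd9*, *Cd63*, *Cd81* and *Cd82* were well above background on all 6 arrays. *Cd82* (NM_001271432), known as a suppressor of metastasis, separated the tissues with little spread. Its values were 15.40, 15.09 and 15.36 in the stomach and 12.22, 12.19 and 12.14 in the esophagus, where the SD was 0.04 (n = 3). This was a log2 fold change of -3.10 (SE 0.15, limma adjusted p = 7.57e-06), an 8.58-fold difference.

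*Cd63* (NM_001282966), the tetraspanin of late endosomes, lysosomes and exosomes, was higher in the stomach by a smaller step. Its values were 16.25, 15.70 and 15.71 in the stomach and 15.15, 14.72 and 14.52 in the esophagus. For each mouse number the stomach organoids were the higher, and the log2 fold change was -1.09 (SE 0.23, limma adjusted p = 0.0186). The call was lost without stomach replicate 1 (limma adjusted p = 0.0735), without esophagus replicate 2 (0.0655) and on the software's processed signal (-0.76, limma adjusted p = 0.249).

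*Cd9* (NM_007657), which eggs need to fuse with sperm and which binds integrins and EWI proteins in most epithelia, was slightly higher in the esophagus. Its values were 15.13, 15.12 and 15.09 in the esophagus and 14.55, 14.61 and 14.48 in the stomach. The SD of the esophagus arrays was 0.02 and that of the stomach arrays 0.06 (n = 3 each), and the groups did not overlap. The log2 fold change was 0.57 (SE 0.13, limma adjusted p = 0.0304), or 1.48-fold. The call was lost without any 1 array (limma adjusted p = 0.0618 to 0.111), with the mouse as a block (limma adjusted p = 0.0799) and on the software's processed signal (0.92, limma adjusted p = 0.0895). At 1.48-fold, *Cd9* also fell short of the study's threshold of 1.5-fold. *Cd81* (NM_133655), a widely expressed partner of EWI proteins, gave 15.69, 14.71 and 14.21 in the esophagus and 15.41, 15.17 and 15.63 in the stomach. The esophagus array of mouse 1 was the highest of the 6 and that of mouse 4 the lowest, so the groups overlapped. The difference of -0.53 had a 95% confidence interval of -1.35 to 0.29 (limma adjusted p = 0.443), and without esophagus replicate 1 it was -0.94 (limma adjusted p = 0.042).

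The partners of these proteins were taken from lists of genes known to bind or act with tetraspanins. Of the 58 partner genes measured, 8 were higher in the esophagus, 12 were higher in the stomach and 38 did not pass, so that 34.5% were called. Of these 58 genes, 53 were well above background on every array of a tissue, and the share called was 26.6% over all such genes and 14.9% over all genes. Without stomach replicate 1 or 2, 5 were higher in the esophagus. Of the 5 laminin-binding integrin genes, *Itgb4* (1.19, limma adjusted p = 0.00245) and *Itga3* (1.15, limma adjusted p = 0.0223) passed toward the esophagus and none passed toward the stomach. *Itga3* did not pass without stomach replicate 1 or 2 or esophagus replicate 2 or 4 (limma adjusted p = 0.0535 to 0.0847). The other 3 did not pass, with *Itga6* at 0.57, *Itgb1* at -0.34 and *Itga7* at -1.82. *Itga7* passed with the mouse as a block (limma adjusted p = 0.0161) and without esophagus replicate 1 (-2.43, limma adjusted p = 0.0087). It also passed with only probes well above background (limma adjusted p = 0.0459) and at the study's threshold (limma unadjusted p = 0.0117). The probes of *Itga6* disagreed, since their mean gave -0.50 (limma adjusted p = 0.0511), and without stomach replicate 4 the brightest probe passed (limma adjusted p = 0.031). The CD151 tetraspanin, which binds these integrins most closely and lies outside the gene names used here, differed by 0.37 (limma adjusted p = 0.227). Among the 13 other direct partners measured, *Igsf3* (2.30, limma adjusted p = 0.000108), *Egfr* (1.11, limma adjusted p = 0.0077) and *Tgfa* (1.09, limma adjusted p = 0.0378) were higher in the esophagus, and *Met* (-0.53, limma adjusted p = 0.0401) was higher in the stomach. *Met* did not pass without any 1 array (limma adjusted p = 0.0688 to 0.145), and *Tgfa* did not without stomach replicate 1 or 2 or esophagus replicate 1 or 2 (limma adjusted p = 0.0819 to 0.147). With the mouse as a block, neither passed (limma adjusted p = 0.0987 and 0.0655), nor did they on the software's processed signal (0.0506 and 0.0904). The EWI proteins that bind CD9 and CD81 directly did not pass, *Igsf8* at 0.58 (limma adjusted p = 0.0728) and *Ptgfrn* at 0.24 (limma adjusted p = 0.552).

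Of the 14 exosome and endosomal sorting genes, *Rab27a* and *Rab27b* were higher in the stomach and *Tsg101* in the esophagus, and 11 did not pass. The share called was 21.4%, against 26.6% of all genes well above background in a tissue. RAB27A and RAB27B dock multivesicular bodies and secretory granules at the plasma membrane. *Rab27a* had values of 10.38, 10.48 and 10.45 in the stomach and 6.35, 5.58 and 5.69 in the esophagus, where 2 of 3 arrays were well above background (log2 fold change -4.56, limma adjusted p = 7.57e-06). The log2 fold change of *Rab27a* was -3.84 with a normexp offset of 50 and -5.53 on the software's processed signal. *Rab27b* had a log2 fold change of -2.32 (limma adjusted p = 0.016) and *Tsg101*, a subunit of the ESCRT-I sorting complex, one of 0.71 (limma adjusted p = 0.0184). *Rab27b* did not pass without stomach replicate 1 or 2 (limma adjusted p = 0.0731 and 0.0551), nor did *Tsg101* without these or esophagus replicate 4 (0.0502 to 0.0818) or on the software's processed signal (0.108). The median of the list was -0.17.

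*Tspan12* (NM_173007) is a co-receptor of Frizzled-4 for the ligand norrin, which signals through beta-catenin in retinal vessels. It was higher in the stomach, with 9.84, 9.90 and 10.41 against 8.45, 7.76 and 8.73 in the esophagus. The groups did not overlap, and the log2 fold change was -1.74 (SE 0.28, limma adjusted p = 0.00535). Its receptor *Fzd4* was also higher in the stomach (-2.28, standard error 0.16, limma adjusted p = 5.51e-05), as did the co-receptor *Lrp6* (-0.64, limma adjusted p = 0.0295). *Lrp5* did not pass (limma adjusted p = 0.152) and *Ndp*, which encodes norrin, had no array well above background. The *Lrp6* call was lost without any 1 array other than esophagus replicate 2 (limma adjusted p = 0.0568 to 0.126) with the mouse as a block (0.0739), with the robust variance trend (0.0853) and on the software's processed signal (-0.41, limma adjusted p = 0.522).

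Of the remaining tetraspanins, *Tspan4* (NM_053082), known from migrasomes, was higher in the stomach and *Tspan9* (NM_175414), known from platelets, in the esophagus. *Tspan4* gave 9.73, 9.83 and 9.75 in the stomach and 9.23, 8.05 and 8.44 in the esophagus (log2 fold change -1.20, limma adjusted p = 0.0312). This call was lost without 1 of 5 of the 6 arrays, the exception being esophagus replicate 1 (limma adjusted p = 0.0636 to 0.118). It was also lost on the software's processed signal (limma adjusted p = 0.0852) and with a normexp offset of 50 (0.0645). *Tspan9* gave 7.14, 7.97 and 8.08 in the esophagus and 6.17, 6.75 and 6.35 in the stomach (log2 fold change 1.31, limma adjusted p = 0.0209). It was lost without stomach replicate 1 or 4 or esophagus replicate 2 or 4 (limma adjusted p = 0.0507 to 0.0973), and with a normexp offset of 50 (0.0554). The esophagus organoids of mouse 4 were on a slide of their own, and with the slide as a block, which is the comparison within the other slide, *Tspan4*, *Tspan9* and *Cd9* did not pass (limma adjusted p = 0.0784, 0.0538 and 0.0618). Of the 5 L6 family genes, whose proteins resemble tetraspanins in their membrane topology, *Tm4sf5* (-3.59, limma adjusted p = 0.000326) and *Tm4sf20* (limma adjusted p = 0.0244) were higher in stomach organoids, where 14.9% of all genes passed in either direction. Of the 5, 2 were well above background on every array of a tissue. *Tm4sf20* was well above background on 0 esophagus and 2 stomach arrays. It was 1.81-fold higher in the stomach on the authors' values, by the fold described for *Tspan2*. It did not pass with a normexp offset of 50 (-0.47 on the log2 scale, limma adjusted p = 0.0695), without replicate 1 or 2 of either tissue (limma adjusted p = 0.0559 to 0.0891) or with the mouse as a block (0.0618).

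The members *Tspan3*, *Tspan6*, *Tspan7* and *Tspan31* were well above background on all 6 arrays and did not pass. Their log2 fold changes were 0.21 (95% confidence interval -0.30 to 0.71), -0.19 (-1.09 to 0.71), -0.18 (-1.01 to 0.66) and -0.10 (-0.54 to 0.34), and their groups overlapped. *Tspan7*, a tetraspanin of neurons, spread from 11.41 to 12.96 over the esophagus arrays. *Tspan11* and *Tspan18* were not well above background on any array. The 3 esophagus values of *Tspan11* (4.48 to 4.77) lay above the 3 stomach values (4.24 to 4.40), and this difference did not pass (limma adjusted p = 0.266).

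Of the 3 leukocyte tetraspanins *Cd53*, *Cd37* and *Tspan32*, none was well above background on all 6 arrays. *Cd53* (NM_007651), present on most leukocytes, gave 7.07, 6.47 and 7.99 in the stomach, and 4.71, 4.95 and 5.78 in the esophagus, where 1 of 3 arrays was well above background. The log2 fold change was -2.02 (SE 0.42, limma adjusted p = 0.0176). The alternatives gave values of -4.03 to -1.35, and the call was lost without stomach replicate 1 (limma adjusted p = 0.0674), without esophagus replicate 2 (0.0646) and with a normexp offset of 50 (limma adjusted p = 0.067). *Cd37* and *Tspan32* did not pass (limma adjusted p = 0.789 and 0.718). Of 8 immune cell markers, 1 passed (12.5%, against 14.9% of all genes), *Itgam*, which was higher in the stomach (-2.62, limma adjusted p = 0.000662, and -0.90 with the mean of its probes). *Ptprc*, the defining leukocyte marker, and *Lyz2* and *Adgre1*, markers of myeloid cells, were not well above background on any array. *Cd68*, a macrophage lysosomal protein, and *Cd3e*, a T cell receptor subunit, were well above background on all 6 arrays and did not pass. *Cd68* gave 14.77, 12.94 and 11.80 in the esophagus and 11.04, 11.22 and 12.36 in the stomach (1.63, limma adjusted p = 0.211), so its groups overlapped. The summed linear intensity of the 8 markers spanned 5373 to 30687 in esophageal samples and 12088 to 17332 in stomach samples. Of the 8, 4 were not well above background on any array, and the highest sum was on the esophagus array of mouse 1, where *Cd68* was highest.

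Of the 5 uroplakins, *Upk1a* was well above background on all 6 arrays and *Upk1b* on none. *Upk3b* passed and the other 4 did not, where 14.9% of all genes and 26.6% of those well above background in a tissue did. *Upk3b* (NM_175309), a uroplakin also found in mesothelium, had values of 6.03, 6.30 and 6.76 in the stomach and 5.15, 5.02 and 4.99 in the esophagus. No esophagus array measured it well above background, so it was at least 2.47-fold higher in stomach organoids (limma adjusted p = 0.00481). This bound holds for the authors' values, where the log2 fold change was -1.31. With a normexp offset of 50 it was -0.79, and on the software's processed signal it was -3.78. *Upk3a* (NM_023478) gave 5.20, 5.56 and 5.77 in the stomach and 4.86, 5.25 and 4.95 in the esophagus, and did not pass (limma adjusted p = 0.175). On the software's processed signal it did (-2.07, limma adjusted p = 0.0264).

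*Upk1a* was well above background on all 6 arrays, with 7.17, 6.73 and 6.75 in the stomach and 6.96, 6.32 and 6.50 in the esophagus, and its difference of -0.29 had a 95% confidence interval of -0.79 to 0.21. *Upk2*, its partner, gave 5.23, 6.51 and 8.13 in the esophagus and 5.47, 5.69 and 5.84 in the stomach. The esophagus arrays of mice 2 and 4 were above all stomach arrays and that of mouse 1 was below them (0.96, 95% confidence interval -0.49 to 2.41). *Upk1b* was measured by one probe at 10 spots, of which 9 were used on the esophagus arrays of mice 1 and 2 and 10 on the others. No spot of it was well above background, and its array means ran from 4.69 to 5.01.

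**Figure D3:**
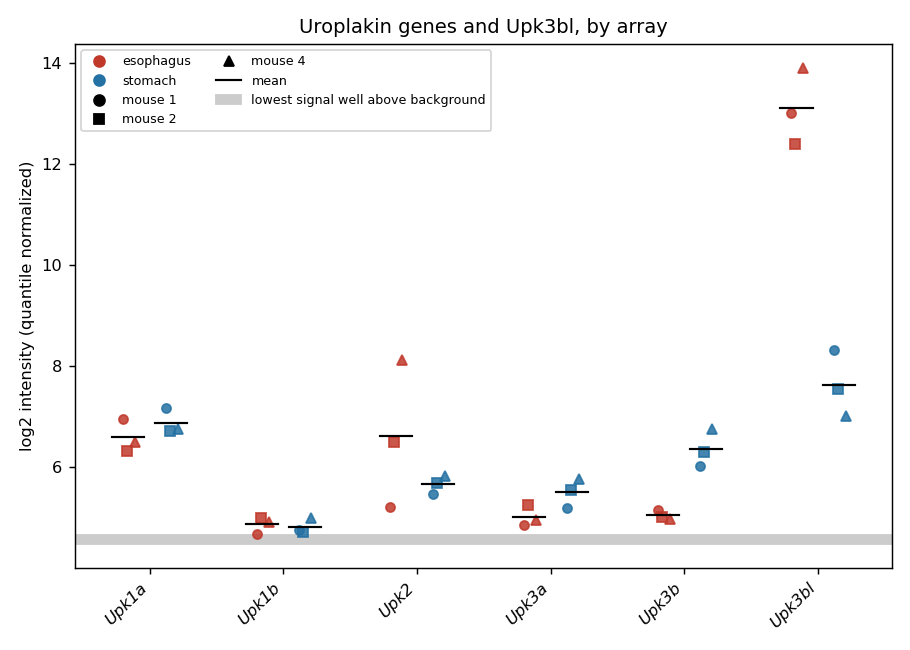
Log2 intensity (vertical axis) of the 5 uroplakin genes and of *Upk3bl* by array, with colors, shapes, mean bars and the grey band as in the plot of the called members. *Upk3b* was higher on the stomach arrays and *Upk3bl* on the esophagus arrays, while *Upk1b* stayed near the band on all 6.

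*Upk3bl*, which encodes a protein like UPK3B and lies outside the gene names used here, went the opposite way from *Upk3b*. It gave 13.00, 12.39 and 13.90 in the esophagus and 8.33, 7.55 and 7.02 in the stomach. Its log2 fold change was 5.46 (SE 0.44, limma adjusted p = 0.000133). The probes of *Upk3b* and *Upk3bl* lie 19.6 kb apart on chromosome 5 of mm9, with no protein-coding gene between the genes in the RefSeq table. Among the 43 member probes and the brightest probes of *Upk3bl* and *Cd151*, none of different genes shared a run of more than 10 bases (973 pairs of the 60-base probes).

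Of 11 genes for plaque transport and urothelial regulation in the bladder lining, 4 passed toward the stomach, 1 toward the esophagus and 6 did not pass. The share called was 45.5%, against 14.9% of all genes and 26.6% of those well above background in a tissue, as 10 of the 11 were. The list was chosen with earlier results of these data known. The paper itself reports *Gata6* and *Foxa1/2* activity in columnar stem cells of the stomach. *Grhl3*, a grainyhead-like factor that activates *Upk2* in the bladder, was higher in the esophagus (4.27, limma adjusted p = 0.00198). With 1 array left out, its log2 fold change was 3.75 to 4.93. *Gata6*, which no esophagus array measured well above background, was 109.9-fold higher in stomach organoids on the authors' values (limma adjusted p = 1.47e-06). Its log2 fold change was -6.78 there, -5.93 with a normexp offset of 50 and -8.66 on the software's processed signal. *Foxa1* (-2.38, limma adjusted p = 9.17e-05), *Pparg* (-4.54, limma adjusted p = 0.000331) and the umbrella cell keratin *Krt20* (-5.04, limma adjusted p = 7.23e-05) were also higher in the stomach. *Krt20* was -4.45 with a normexp offset of 50 and -5.83 on the software's processed signal. *Snx31*, a sorting nexin that binds uroplakins, had no array well above background.

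Some members are neighbors in the genome. With the brightest probes of mm9, *Tspan9* and *Tspan11* were 10.1 kb apart on chromosome 6, *Cd81* and *Tspan32* 48.4 kb apart on chromosome 7 and *Cd82* and *Tspan18* 217 kb apart on chromosome 2. The RefSeq table has no protein-coding gene between the genes of each pair. In each pair, the first gene was well above background on all 6 arrays. The second was well above background on 0 of 6 arrays (*Tspan11*, *Tspan18*) or 2 of 6 (*Tspan32*).

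Of the 31 members, 8 were measured by more than one probe. The probes of *Cd82*, *Tspan2* and *Tspan15* all passed toward the stomach. The 3 probes of *Cd82* gave log2 fold changes of -3.10, -3.01 and -2.56 (limma adjusted p = 7.57e-06, 1.67e-05 and 0.00761). The second probe of *Tspan15*, assigned to another transcript (ENSMUST00000219106.1) and spanning chr10:61652579-61654248 of mm9, gave -2.55 (limma adjusted p = 1.44e-05). The second probe of *Tspan17* gave 0.97 and did not pass (limma adjusted p = 0.192). No probe of *Cd37*, *Tspan5*, *Tspan18* or *Tspan32* passed, and those of *Tspan18* ran from -0.20 to 0.20.

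**Figure D4:**
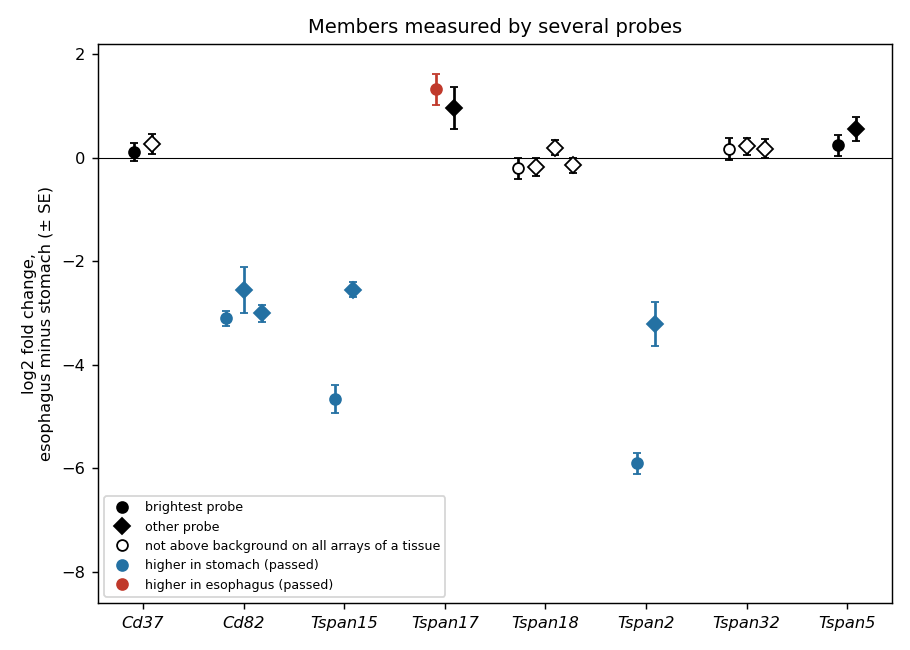
Log2 fold change (esophagus minus stomach, vertical axis, with the standard error) of each probe of the 8 members with several probes. All probes of *Cd82*, *Tspan15* and *Tspan2* lie below -2.5, and open symbols mark probes that neither tissue measured well above background on all 3 of its arrays.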

How the data were processed

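Gene expression was measured on 6 single-color Agilent-028005 arrays, 3 of esophageal and 3 of stomach organoids labelled with the same 3 mouse numbers. Per the file headers, spots were read with Feature Extraction (version 11.5.1.1), which gave an intensity and flags for each of 62976 spots, with probe positions on mm9. The authors deposited log2 values that were background corrected and quantile normalized, and these were used here. They differed by a median of 0.00485 from values made here by normexp (offset 15) and quantile normalization of median intensities, and the 2029 empty cells were the 2029 outlier-marked spots. Table rows were matched to spots by feature number, borne out by correlations of 0.9988 or higher with the log2 median intensity of each array.

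The spots of each probe were averaged. In R 4.3.3 with limma 3.58.1, the 2 tissues were compared with lmFit and eBayes (two-sided, no block), with Benjamini-Hochberg adjustment over 55681 probes, and the procedure was tested on simulated data. A gene was called by its brightest probe, which was measured on all arrays for 34281 of 34298 gene names. A probe was well above background on an array when the software marked at least 1 of its spots so. All 31 members matched a RefSeq symbol. That table was used for names, gene order and promoters only, and probe positions were not annotated as exon or UTR.

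Same-numbered samples come from the same mouse by their labels. After subtracting tissue means, the arrays that share a mouse number correlated with r = 0.025, 0.012 and -0.008, and the mouse block was kept as an alternative. P-values rest on the spread between the 3 arrays of each tissue, which limma draws toward the spread of all probes. This spread also holds the harvest day of stomach mouse 4 and the slide of esophagus mouse 4. The reported fit does not use the shared mice, and the number of arrays limits precision. The members and the gene lists were chosen with earlier results of these data known. *Ceacam1* of the partner lists was not matched by name, and some list members are not reported here by name. By rule, values on every array were given for members that passed and for the 4 with the highest mean signal, and from each partner list values were given for up to 4 genes with the smallest adjusted p and for the best known partner of a called member. The values of uroplakins that did not pass, *Upk3bl*, *Grhl3*, *Itga7*, *Snx31*, *Ndp*, *Trp63*, *Cd68*, *Cd3e*, *Acta2*, *Kdr*, *Pecam1* and the neighboring genes were chosen after they had been seen.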

Additional observations from a re-analysis of the deposited data

How the results depend on the processing

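The alternatives were the software's processed intensity scaled to the 75th percentile, normexp with an offset of 50 on mean signals, normexp with an offset of 15 on median signals, only probes well above background, averaged probes per gene, a robust eBayes fit with a variance trend, a block for mouse, a block for slide, the study's threshold (unadjusted p under 0.05 and 1.5-fold), and each array left out. The number of members higher in the esophagus, 3 in the reported fit, was 1 with an offset of 50 and 1 with the slide as a block, and 0 to 1 with an array left out. The number higher in the stomach, 11, was 8 to 12 with an array left out and 9 to 11 otherwise. Partner genes higher in the esophagus numbered 5 to 10 and those higher in the stomach 8 to 14 with an array left out, and at the study's threshold the latter were 18. Of all genes, 5093 were called in the reported fit, 3139 without stomach replicate 1 and 3188 without stomach replicate 2.

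With the mouse as a replicate block, 2 members passed toward the esophagus and 11 toward the stomach, since *Cd9* lost its call (limma adjusted p = 0.0799). Outside the members, *Tgfa*, *Met*, *Lrp6* and *Tm4sf20* lost theirs as well, *Itga7* gained one, and no other call changed among the genes named that were refitted under every alternative. On the software's processed signal scaled to the 75th percentile, the median log2 fold change of all genes shifted from 0.03 to 0.20. That setting changed the signal and background correction along with the scaling. The brightest probe of *Trp63* and the mean of its probes (5.001) passed in opposite directions. The other signs that turned were of differences that did not pass in either fit. On the scaled processed signal, *Tspan7* was 0.12, *Tspan31* 0.18, *Tspan10* 0.25 and *Cd37* -0.053, or -0.077, -0.018, 0.049 and -0.25 relative to the shift. *Tspan10* was 0.00294 with an offset of 50, *Tspan7* was 0.21 with the slide as a block, and *Itga6* was -0.50 with the mean of all its probes. With an array left out, values ran from -0.32 to 0.013 for *Tspan18*, -0.47 to 0.20 for *Tspan6*, -0.57 to 0.21 for *Tspan7*, -0.24 to 0.036 for *Tspan31*, -0.056 to 0.022 for *Tspan10*, -0.021 to 0.13 for *Upk1b* -0.042 to 0.20 for *Cd37* and -0.14 to 0.081 for *Snx31*. The cause was not tested. The fold changes of *Upk3a*, *Upk3b*, *Cd53*, *Tspan2*, *Tspan8*, *Gata6*, *Rab27a*, *Krt20* and *Tm4sf20* moved between the authors' values, the offset of 50 and the processed intensity, which differ in background correction and in the signal or scaling used.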
